A study of Mus musculus with 9 samples.

Results

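The HOX genes encode homeodomain transcription factors and stand in 4 chromosomal clusters, Hoxa, Hoxb, Hoxc and Hoxd. All gene rows of the expression tables whose symbol is Hoxa, Hoxb, Hoxc or Hoxd followed by a number were taken, which gave 39 genes of 46517 gene rows. Of the 39 genes, 11 are in Hoxa (mm10, chromosome 6, 52155590 to 52260880, minus strand), 10 in Hoxb (chromosome 11, 96194316 to 96368256), 9 in Hoxc (chromosome 15, 102921103 to 103036852) and 9 in Hoxd (chromosome 2, 74668310 to 74765142). They were measured in bulk RNA sequencing libraries of 4 cell populations sorted from mouse back skin at postnatal day 30, in anagen VI, the growth stage of the hair cycle. The populations were suprabasal hair bulb cells (suprabasal HB), basal hair bulb cells (basal HB) and cells of the outer root sheath (ORS), with 2 libraries each, and hair follicle stem cells (HFSC), with 3.

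No group was treated, and the labels give the same strain, Lhx2-GFP (CD1), mixed sex and the same sorting markers (P-cadherin, Sca-1, CD34, GFP and the integrins α6 and β1) for every library, although the extraction text names K14-H2BGFP mice. The gate that set each population apart is not given. The outer root sheath is the sleeve of epithelium that runs from the bulge, where the stem cells lie, down to the bulb, where dividing basal cells give rise to the layers of the hair shaft and inner root sheath. How many mice went into a library is not given, so a p-value measures the spread between these libraries. Fewer cells of a type in a sort and less RNA per cell cannot be told apart.

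Genes at one end of each cluster are switched on early and far forward along the body axis, and those at the other end later and farther back. Genes at the same place in different clusters form a paralog group and share much of their sequence, and the number in a gene's name is its paralog group. Here groups 1 to 4 are called anterior, groups 5 to 8 central and groups 9 to 13 posterior. HOX proteins bind DNA together with cofactors of the PBX, MEIS and PKNOX families. In skin they mark body position, and mice without working Hoxc13 have brittle hair and lose it, the reason why Hoxc13 is counted among the regulators of the hair shaft.

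Total expected counts were between 25098237 and 29902799 in the HFSC libraries and between 45438637 and 88596741 in the others. The sorted populations were set against lists of marker genes. Bulge stem cell markers summed to between 600 and 836 normalised CPM (read counts scaled to library size) in suprabasal HB and to between 1020 and 1340 CPM in basal HB, against 4940 and 6050 CPM in ORS and 5010 to 5540 CPM in HFSC. Gene by gene, 6 of the 10 genes of this list were lower in ORS than in HFSC and 1 higher, beside 23.8% and 18.1% of all genes tested. The list took Tcf3 and Tcf4 by symbol, without a check that these are the factors known from the bulge. They were at 148 and 155 CPM and at 107 and 111 CPM in suprabasal HB, a large part of the sums there. Neither was called in ORS against HFSC. Lhx2 weighed most in the ORS sums, at 2960 and 3380 CPM in ORS and 1270 to 1420 CPM in HFSC. Outer root sheath markers were lower in ORS than in HFSC for 7 of 8 genes, so this list did not set the ORS libraries apart in the way their label says. The HFSC libraries also stood apart in genes unrelated to the follicle: Rps12, a ribosomal protein gene, was at 0 in all 3, against 224 to 391 CPM in the other 6 libraries. Ddx3y, which lies on the Y chromosome, was at 0 or 0.0454 CPM in HFSC and at 51.7 to 96.2 CPM elsewhere, and Xist, transcribed from the inactive X chromosome, was at 1.23 and 1.04 CPM in suprabasal HB, 359 and 298 CPM in basal HB, 1.11 and 1460 CPM in ORS and 1190 to 1440 CPM in HFSC. Each of the 4 comparisons below therefore sets libraries against each other that differ in a gene of the sex chromosomes, and its part in the HOX values was not tested.

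Of the 39 genes, 32 had enough reads to be tested, and 28 of the 32 differed among the 4 populations in edgeR's quasi-likelihood test with Benjamini-Hochberg adjustment over 20491 genes, where 65.6% of genes tested did. The 4 genes without a call were Hoxb1, Hoxb9, Hoxc12 and Hoxd3. The 7 untested genes, Hoxa11, Hoxa13, Hoxb13, Hoxc11, Hoxd1, Hoxd12 and Hoxd13, had at most 7 counts in a library, and Hoxd12 had 0 in every library. A count of 0 allows a level of up to 3 counts, which was 0.0339 to 0.12 CPM by library and covers counting error only. All the genes not tested except Hoxd1 are posterior. Hoxc13, which lies among them in number, was the HOX gene with the most transcript in all 9 libraries.

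**Figure D1:**
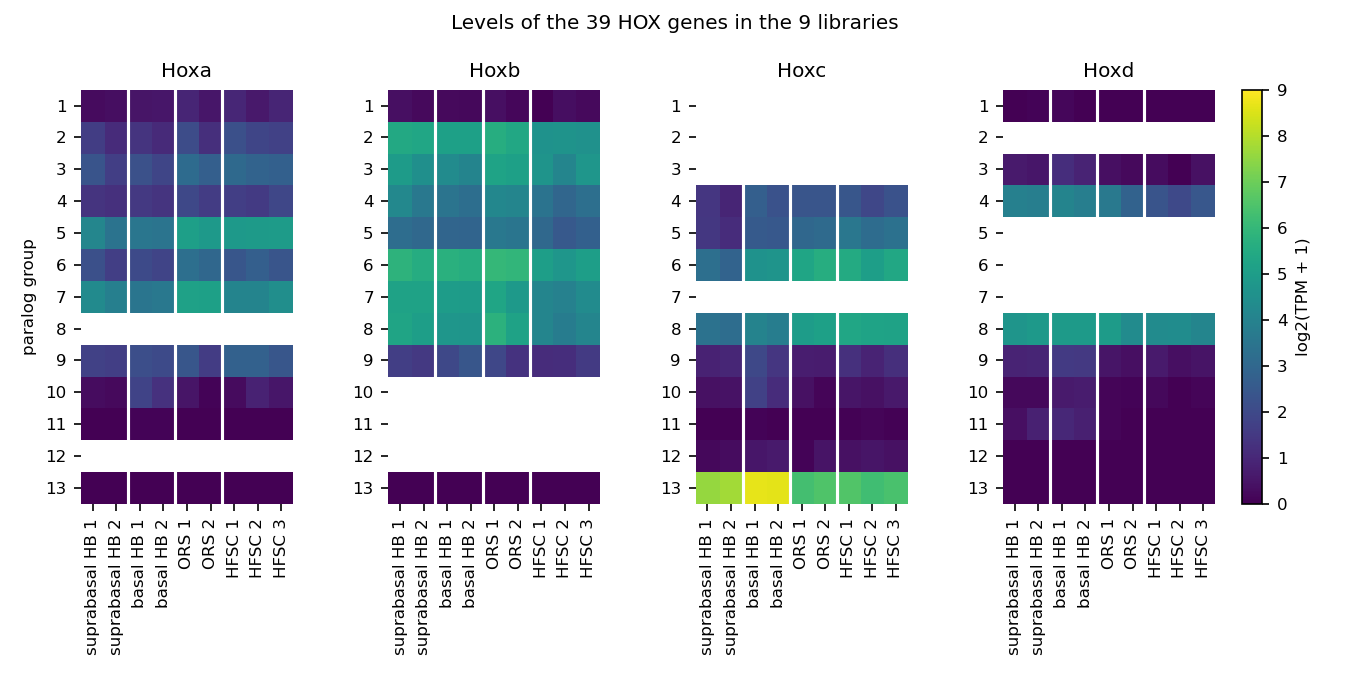
Levels of the 39 HOX genes as log2(TPM + 1), one panel for each cluster, with the paralog group down the page and the 9 libraries across it; white cells mark paralog groups that the cluster does not hold. Hoxc13 is the brightest cell in every library, and most other posterior genes are dark.

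Levels of different genes were compared in TPM, a measure of transcripts scaled for gene length and library. Summed over the 39 genes, the level was 517 ± 17 TPM in suprabasal HB, 714 ± 22.7 TPM in basal HB, 542 ± 34.9 TPM in ORS (SD, n = 2 each) and 390 ± 32.8 TPM in HFSC (SD, n = 3). Hoxc13 alone made 35.5% and 42.6% of that sum in the suprabasal HB libraries, 56% and 56.8% in basal HB, 13.8% and 17.5% in ORS and 21% to 22.4% in HFSC. Without Hoxc13 the sums were 316 ± 36.3, 311 ± 14.3, 458 ± 43.5 and 306 ± 24.3 TPM in the same order, so ORS had the highest TPM sum of the remaining 38 genes. Across populations such sums also carry the authors' scaling of TPM. Against the scaling of the CPM, log2(TPM + 1) shifted the median of all genes by 0.3 in ORS against HFSC. The shift was -0.25 in suprabasal HB against basal HB, -0.2 in suprabasal HB against ORS and 0.05 in basal HB against ORS. Small differences between populations in these sums are therefore uncertain. The Hoxb genes made 38.7% and 43.1% of the HOX transcripts in suprabasal HB, 24.6% and 24.7% in basal HB, 43.8% and 47.5% in ORS and 29.9% to 33% in HFSC. At least 1 TPM in every library of the population was reached by 21 of the 39 genes in suprabasal HB, 26 in basal HB, 22 in ORS and 22 in HFSC.

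After Hoxc13, the next highest genes were Hoxb6 and Hoxb2 in both bulb populations, Hoxb6 followed by Hoxb8 or Hoxc6 in the ORS libraries, and Hoxc6 and Hoxc8 in HFSC. All are transcription factors of the anterior and central groups, known for patterning the trunk and limb skeleton or, for Hoxb2, the hindbrain. The 39 bases below encode the core of the homeodomain's recognition helix, which reads the major groove of DNA, and they are shown because short reads must tell the genes apart even in such a conserved stretch, and because Hoxc13 makes so much of the sums above. They were read from GENCODE M21 transcripts in mm10, and capitals mark bases that differ from Hoxc13:
Hoxc13, chr15:102927345-102927383, plus strand: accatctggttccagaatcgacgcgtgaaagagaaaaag
Hoxc8, chr15:102992706-102992744, plus strand: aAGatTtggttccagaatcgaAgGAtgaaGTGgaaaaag
Hoxb6, chr11:96300824-96300862, plus strand: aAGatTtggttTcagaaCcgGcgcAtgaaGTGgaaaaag
Hoxb8, chr11:96284309-96284347, plus strand: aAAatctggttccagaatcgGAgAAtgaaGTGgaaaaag
Hoxc10, chr15:102970983-102971021, plus strand: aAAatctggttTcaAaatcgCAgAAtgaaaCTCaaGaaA
Hoxd11, chr2:74684052-74684090, plus strand: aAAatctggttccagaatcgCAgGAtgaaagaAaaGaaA

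Even here the other 38 genes differed from Hoxc13 at 7 to 15 of the 39 bases. Other pairs were closer to each other in this stretch, and Hoxa6 and Hoxb4 differed only in its last base. Across whole genes, 0.6% of the 25-base words of Hoxc13 occur in another gene's transcripts, as do 0.8% for Hoxc6, 1.1% for Hoxc8, 1.8% for Hoxb6 and 1% for Hoxb8. Much larger shares were found where genes overlap on the chromosome: 61.5% for Hoxd3 and 50.3% for Hoxd4, which overlap each other and Gm28230, and 53.1% for Hoxb3, 27.1% for Hoxb2, 26.9% for Hoxa3 and 21.9% for Hoxa7, which overlap antisense RNAs. Levels of these 6 genes are uncertain, for Hoxd3 and Hoxd4 because they overlap on the same strand and for the others because the counting strand is not given. Hoxa11, which was not tested, shares 34.1% of its words, mainly with Hoxa11os. Among the genes with large changes below, Hoxd11 shares 10.9% of its words with Gm28309 and Hoxc10 shares 7.6% with Hoxc5, so a small part of their reads could belong to either gene.

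Basal HB against ORS, the basal cells of the bulb against the sheath, split the HOX genes by their number. The anterior, central and posterior classes were chosen with earlier results of these data known, so the split is not an independent test. In this comparison 7 of the 32 HOX genes were higher in basal HB and 13 lower, where 15.8% of all genes tested were higher and 14.7% lower, 30.5% in either direction. The libraries did not overlap for 24 of the 32, where they did not for 67.4% of all genes tested. Every one of the 7 higher genes was posterior (7 of 10 tested posterior genes higher, 0 lower), and the 13 lower genes were 4 of 11 anterior and 9 of 11 central genes. The median log2 fold change was 2.26 for posterior, -0.93 for central and -0.6 for anterior genes, beside -0.04 for all genes tested. With an unadjusted p under 0.05, 2 anterior genes and 0 central genes were higher and 0 posterior genes lower in edgeR, and DESeq2 called 0 posterior genes lower and 0 central genes higher. By cluster, 3 of 6 Hoxd genes rose and 0 fell, 6 of 9 Hoxb genes fell and 0 rose, and Hoxa and Hoxc had members on both sides. No Hoxd gene was lower and no Hoxb gene higher at an unadjusted p under 0.05 in edgeR (0 and 0), and DESeq2 called 0 of each.

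Hoxc13 was at 497 and 533 CPM in basal HB and at 105 and 118 CPM in ORS. Both basal HB libraries lay far above both ORS libraries, and basal HB was 4.61-fold higher (log2 fold change 2.21, SE 0.15, edgeR adjusted p = 7.4e-05). The other posterior genes were all low in level. One of them is Hoxd11, known for forearm and kidney patterning. Hoxd11 was at 0.954 and 0.693 CPM in basal HB and at 0.0918 and 0.0362 CPM in ORS, where it rested on 6.22 and 3.24 counts, and it was 13.6-fold higher in basal HB (log2 3.77, SE 0.74, adjusted p = 0.0049). Hoxa10, which patterns the uterus and the lumbar vertebrae, was at 2.39 and 1.46 CPM in basal HB, against 0.413 and 0.0559 CPM in ORS (log2 3.08, SE 0.8, adjusted p = 0.019). Its paralog Hoxc10 was at 2.2 and 1.26 CPM in basal HB, against 0.342 and 0.0782 CPM in ORS (log2 3.08, SE 0.6, adjusted p = 0.0046). In both genes the first ORS library stood well above the second, and the groups did not overlap.

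Hoxd10, the third member of group 10 and a gene of hindlimb motor neurons, was at 0.513 and 0.58 CPM in basal HB and at 0.0738 and 0.067 CPM in ORS (log2 2.91, SE 0.68, adjusted p = 0.011). Hoxd9 was at 2.02 and 2.08 CPM in basal HB and at 0.499 and 0.324 CPM in ORS (log2 2.32, SE 0.35, adjusted p = 0.0014). Hoxc9, which patterns the thoracic spinal cord, was at 3.25 and 2.14 CPM in basal HB and at 0.808 and 0.781 CPM in ORS (log2 1.76, SE 0.32, adjusted p = 0.0033). For each of these genes the basal HB libraries were above both ORS libraries. Hoxa9, Hoxb9 and Hoxc12, the posterior genes tested that did not pass, had log2 fold changes of 0.25, 0.74 and 1.1.

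Motifs were searched in the 250 bases before the annotated start of the 22 HOX genes that RefSeq's table for GRCm38.p6 holds, 24 windows in all. On either strand, TAATTA, a homeodomain core that reads the same on both strands, stood in 2 of the 24 windows and in 4.84% of 32851 windows of all genes. TGATTNAT, a PBX-HOX pair, stood in 2 windows and 2.82% of all windows, TGACAG, a MEIS and PKNOX site, in 2 and 15.9%, and TATAAA in 4 and 12.4%. Both TAATTA windows were those of Hoxd11, whose second window also held TGATTNAT on the other strand, with no overlap between the motifs. A window each is printed for Hoxd11 and Hoxa10, which were among the genes that rose most, and for Hoxb8, which moved the other way. Capitals mark the motifs named above as they read on the printed strand, so that TTTATA is TATAAA and ATCAATCA is TGATTNAT on the other strand, and none of the printed windows touches an annotated exon:
Hoxd11, chr2:74682073-74682322, plus strand: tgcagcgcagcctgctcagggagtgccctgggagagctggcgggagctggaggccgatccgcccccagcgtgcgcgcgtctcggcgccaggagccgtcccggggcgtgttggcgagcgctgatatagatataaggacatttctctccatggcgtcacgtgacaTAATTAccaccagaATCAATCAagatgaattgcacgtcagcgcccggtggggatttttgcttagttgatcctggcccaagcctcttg
Hoxa10, chr6:52234940-52235189, minus strand: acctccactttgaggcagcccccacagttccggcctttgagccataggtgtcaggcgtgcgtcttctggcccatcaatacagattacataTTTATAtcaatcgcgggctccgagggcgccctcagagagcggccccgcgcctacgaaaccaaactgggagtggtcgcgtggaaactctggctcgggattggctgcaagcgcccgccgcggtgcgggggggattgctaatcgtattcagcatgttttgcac
Hoxb8, chr11:96281655-96281904, plus strand: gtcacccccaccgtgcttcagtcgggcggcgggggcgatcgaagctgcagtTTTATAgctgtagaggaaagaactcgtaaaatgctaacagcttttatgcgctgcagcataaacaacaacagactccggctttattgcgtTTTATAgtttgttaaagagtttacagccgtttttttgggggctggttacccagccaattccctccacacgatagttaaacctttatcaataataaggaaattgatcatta

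Of the 11 central genes 9 fell, and Hoxb7 and Hoxd8 did not pass (log2 -0.22 and 0.15). Hoxc8 was at 14.7 and 13.8 CPM in basal HB and at 32.1 and 34.9 CPM in ORS, 2.35-fold lower in basal HB (log2 -1.23, SE 0.09, adjusted p = 9.6e-05). Hoxc6 was at 14.8 and 16.9 CPM in basal HB and at 27.1 and 33.4 CPM in ORS (log2 -0.93, SE 0.16, adjusted p = 0.0023). Hoxc5 was at 5.1 and 5.15 CPM in basal HB and at 9.38 and 10.3 CPM in ORS (log2 -0.94, SE 0.14, adjusted p = 0.0016). The Hoxc cluster thus held both directions: Hoxc5, Hoxc6 and Hoxc8 fell, Hoxc9, Hoxc10 and Hoxc13 rose, and Hoxc4 was at 5.6 and 4.19 CPM in basal HB and at 4.56 and 4.58 CPM in ORS (log2 0.1, SE 0.28).

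Falls were also seen for Hoxb8, whose mouse mutants groom to excess and lose hair, at 27.5 and 31.4 CPM in basal HB and 58.7 and 40.6 CPM in ORS (log2 -0.75, SE 0.17, adjusted p = 0.0096). Hoxb6 was at 38.4 and 39.5 CPM in basal HB and at 53.8 and 49.5 CPM in ORS (log2 -0.41, SE 0.1, adjusted p = 0.013). Hoxb2 was at 29 and 31.9 CPM in basal HB and at 44.7 and 38 CPM in ORS (log2 -0.44, SE 0.11, adjusted p = 0.013). Their neighbour Hoxb7 was at 17.3 and 19.8 CPM in basal HB and at 24.7 and 18.5 CPM in ORS, with overlapping libraries and no call. The other falls, of Hoxa3, Hoxa5, Hoxa6, Hoxa7, Hoxb3, Hoxb4 and Hoxb5, ranged in log2 fold change between -0.79 and -1.71, with Hoxa7 the largest of the 13.

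Without the first basal HB library 8 in place of 13 genes were lower, and the calls of Hoxa10 (adjusted p = 0.11), Hoxb2 (0.11), Hoxb6 (0.095) and Hoxb8 (0.085) ended. Those of Hoxb2 (0.09) and Hoxb6 (0.075) also ended without the first ORS library, that of Hoxb6 without the second basal HB library (0.063), that of Hoxa10 without the second ORS library (0.061), and that of Hoxd10 without any 1 of the 4 libraries (0.056 to 0.081), as did those of Hoxa3 and Hoxb5 in some of these fits. Leaving out 1 ORS library moved 3 of the fold changes by over 1.5 times. Without the first, the log2 fold change was 5.04 for Hoxa10, 4.42 for Hoxc10 and 4.53 for Hoxd11, and without the second 2.21, 2.34 and 3.19, so the order of these genes by size changed with the library. On the authors' TPM limma did not call Hoxb6 (adjusted p = 0.18) or Hoxc5 (0.07).

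**Figure D2:**
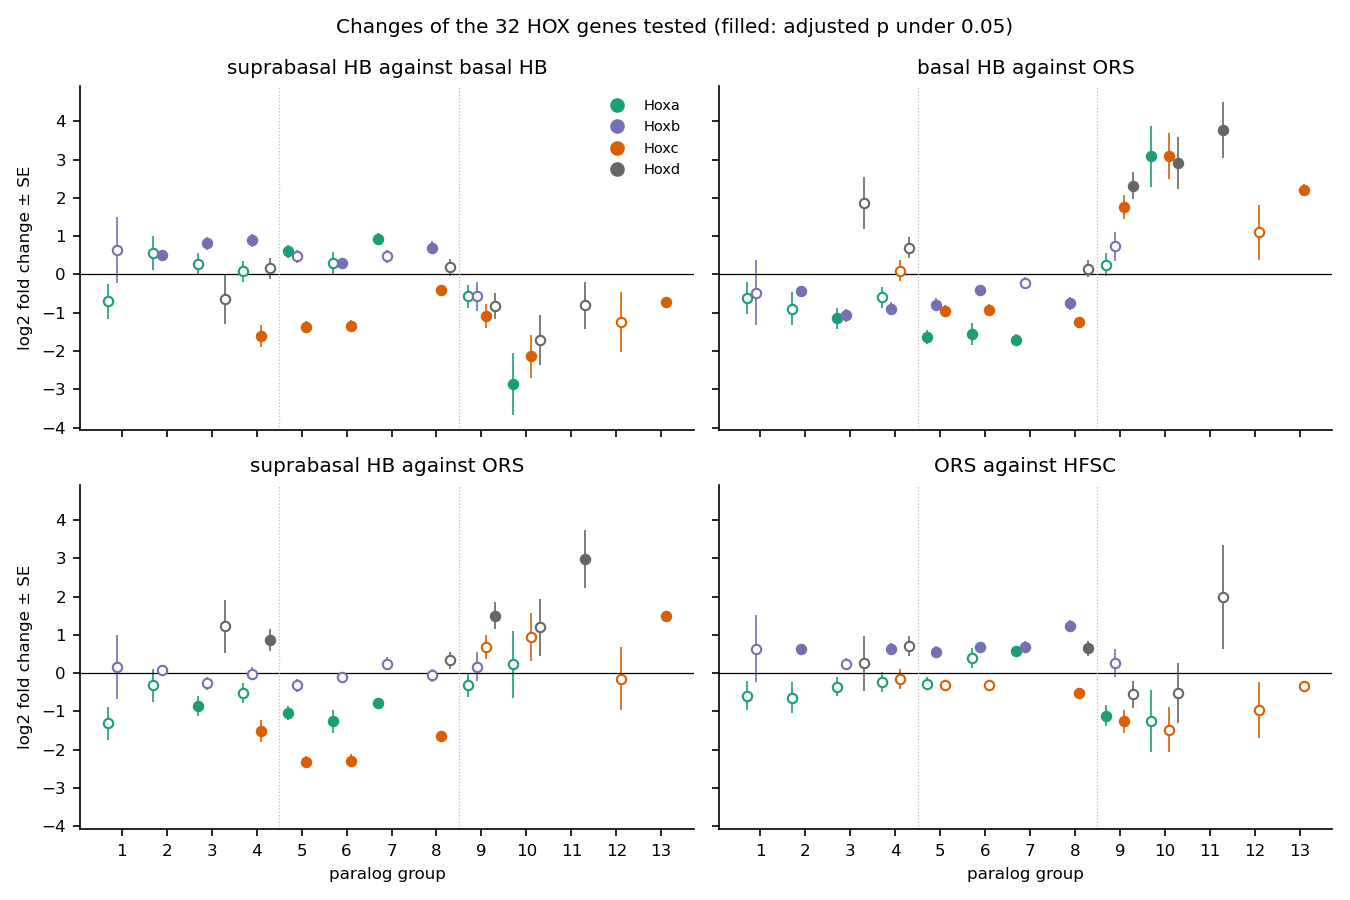
Log2 fold change with its SE for the 32 tested HOX genes against their paralog group, one panel for each comparison and one colour for each cluster; filled points have an edgeR adjusted p under 0.05, and dotted lines part groups 1 to 4, 5 to 8 and 9 to 13. In basal HB against ORS the points above group 8 all lie above 0, with Hoxd11 at 3.77, and in suprabasal HB against basal HB they all lie below it.

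Many markers of other cell types were also higher in basal HB than in ORS, where 15.8% of all genes tested were higher and 14.7% lower. The mural and muscle list had 7 of 9 genes higher and 1 lower in basal HB than in ORS, with sums of 1540 and 1780 CPM in basal HB and 774 and 705 CPM in ORS. Myh11, smooth muscle myosin, was at 385 and 396 CPM in basal HB and 23 and 6.29 CPM in ORS, and Rgs5, a pericyte gene, was at 215 and 261 CPM in basal HB and 28.3 and 9.54 CPM in ORS. The dermal fibroblast and papilla list had 14 of 21 genes higher and 1 lower, with sums of 3510 and 3150 CPM in basal HB and 1970 and 1180 CPM in ORS, and the melanocyte list had 10 of 11 higher, with sums of 1480 and 997 CPM in basal HB and 380 and 92.9 CPM in ORS. No gene of these 3 lists was at 0 in any population, and the first ORS library had the larger sum of each list. Of the posterior genes called, Hoxa10, Hoxc10, Hoxd9 and Hoxd11 were also higher in the first ORS library than in the second. Hoxc9 (0.808 and 0.781 CPM) and Hoxd10 (0.0738 and 0.067 CPM) were close in both, and Hoxc13 was lower in the first (105 and 118 CPM). Summed over the 15 posterior genes other than Hoxc13, the HOX level was 18.1 and 15.5 TPM in basal HB, against 9.17 and 5.1 TPM in ORS. In HFSC the mural and muscle sum was 2070 to 2770 CPM and that posterior sum 9.33 to 10.2 TPM. This mural and muscle sum came mostly from Acta2, at 840 to 1360 CPM in HFSC, and Tagln, at 784 to 871 CPM. Acta2, Tagln, Cspg4 and Mcam were higher in every HFSC library than in either basal HB library. Myh11 (12.2 to 18.8 CPM in HFSC), Rgs5 (17.1 to 31.5 CPM), Des, Myod1 and Actn2 were lower. Of 7 nerve and Schwann cell markers 6 were higher in basal HB than in ORS. The part of these cells in the HOX values was not tested.

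**Figure D3:**
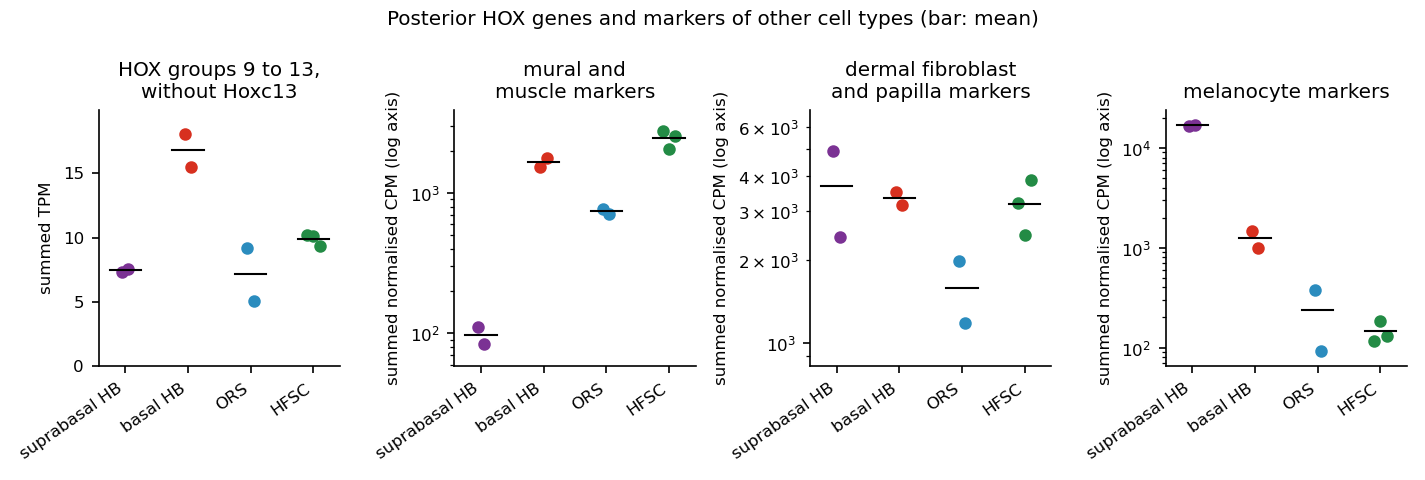
Level by library of the 15 posterior HOX genes other than Hoxc13, as summed TPM, beside the summed normalised CPM of 3 marker lists on log axes; points are libraries and bars their means. Basal HB has the highest HOX sum, 18.1 and 15.5 TPM. The mural and muscle sum is highest in HFSC, mostly from Acta2 and Tagln, and lowest in suprabasal HB.

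Suprabasal HB against basal HB, the populations of the bulb, divided the HOX genes by cluster and also by number. Here 7 of 32 genes were higher in suprabasal HB and 8 lower, where 13.1% of all genes tested were higher and 14.8% lower, 27.9% in either direction. The libraries did not overlap for 28 of the 32, where they did not for 68.4% of all genes tested. The higher genes were 5 of 9 Hoxb genes and 2 of 9 Hoxa genes, and the lower ones 7 of 8 Hoxc genes and Hoxa10. All 8 tested Hoxc genes had log2 fold changes below 0, with a median of -1.29, also under the other scalings tried, and 8 of 9 Hoxb genes had values above 0, with a median of 0.52. For Hoxd 0 of 6 genes were called by edgeR or DESeq2, and 2 were lower at an unadjusted p under 0.05 in edgeR and 1 in DESeq2. By number, all 10 tested posterior genes had log2 fold changes below 0, with a median of -0.95, and 4 were called lower and 0 higher. Values above 0 were found for 8 of 11 anterior and 8 of 11 central genes. These libraries of basal HB are also those of the comparison with ORS, so opposite signs in the pair of comparisons are not independent.

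Hoxc4 fell most among the Hoxc genes of the anterior and central groups, at 1.96 and 1.23 CPM in suprabasal HB and 5.6 and 4.19 CPM in basal HB (log2 -1.61, SE 0.29, adjusted p = 0.0042). Hoxc5 was at 1.93 and 2.03 CPM in suprabasal HB, against 5.1 and 5.15 CPM in basal HB, 2.59-fold lower (adjusted p = 0.00038). Hoxc6 was at 6.67 and 5.75 CPM in suprabasal HB and at 14.8 and 16.9 CPM in basal HB, 2.55-fold lower (adjusted p = 0.00058). In these 3 genes the libraries of the populations were far apart. Hoxc8 changed less, at 10.9 and 10.7 CPM in suprabasal HB against 14.7 and 13.8 CPM in basal HB (log2 -0.4, SE 0.09, adjusted p = 0.014).

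Hoxc13 was at 270 and 354 CPM in suprabasal HB, against 497 and 533 CPM in basal HB. Its level was 1.65-fold lower in suprabasal HB (log2 -0.72, SE 0.14, adjusted p = 0.006), and the libraries did not overlap. Hoxa10 was at 0.283 and 0.246 CPM in suprabasal HB (log2 -2.85, SE 0.81, adjusted p = 0.03) and Hoxc10 at 0.351 and 0.43 CPM (log2 -2.14, SE 0.57, adjusted p = 0.024), beside the basal HB values given above. Hoxc9 was the remaining fall, at 1.06 and 1.5 CPM in suprabasal HB (log2 -1.08, SE 0.31, adjusted p = 0.032). For Hoxd11 the libraries overlapped, at 0.252 and 0.718 CPM in suprabasal HB and 0.954 and 0.693 CPM in basal HB, and no call was made.

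Among the Hoxb genes, Hoxb8 was at 46.6 and 49.1 CPM in suprabasal HB and 27.5 and 31.4 CPM in basal HB (log2 0.7, SE 0.17, adjusted p = 0.016). Hoxb2 was at 42.2 and 45.1 CPM in suprabasal HB and 29 and 31.9 CPM in basal HB (log2 0.52, SE 0.11, adjusted p = 0.0076). Hoxb6 was at 48.9 and 47.1 CPM in suprabasal HB and 38.4 and 39.5 CPM in basal HB (log2 0.3, SE 0.1, adjusted p = 0.049). Both libraries of suprabasal HB were above both of basal HB for each of the 9 Hoxb genes tested except Hoxb9, which lay the other way. Hoxb3, Hoxb4, Hoxa5 and Hoxa7 rose as well, by 0.6 to 0.92 on the log2 scale.

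On the authors' TPM, which shift the median of all genes by -0.25 here, limma called 0 of the 7 rises (3 genes at an unadjusted p under 0.05) while all genes tested had 20.5% of calls higher in place of 46.8%. Without the first basal HB library 2 genes were higher and 4 lower, 2 were higher without the second, and 4 were higher and 4 lower without either suprabasal HB library; the calls of Hoxa10, Hoxb6, Hoxb8, Hoxc8, Hoxc9 and Hoxc10 ended in at least 3 such fits each (largest adjusted p 0.16, 0.23, 0.12, 0.1, 0.25 and 0.17) and that of Hoxb2 in 2 (largest 0.076). The call of Hoxa5 ended in 6 (largest 0.24), also with RLE size factors (0.052) and upper-quartile scaling (0.069), that of Hoxb3 in 3 (largest 0.071) and that of Hoxb4 in 1 (0.051), while those of Hoxc4, Hoxc5, Hoxc6, Hoxc13 and Hoxa7 held without any 1 library.

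**Figure D4:**
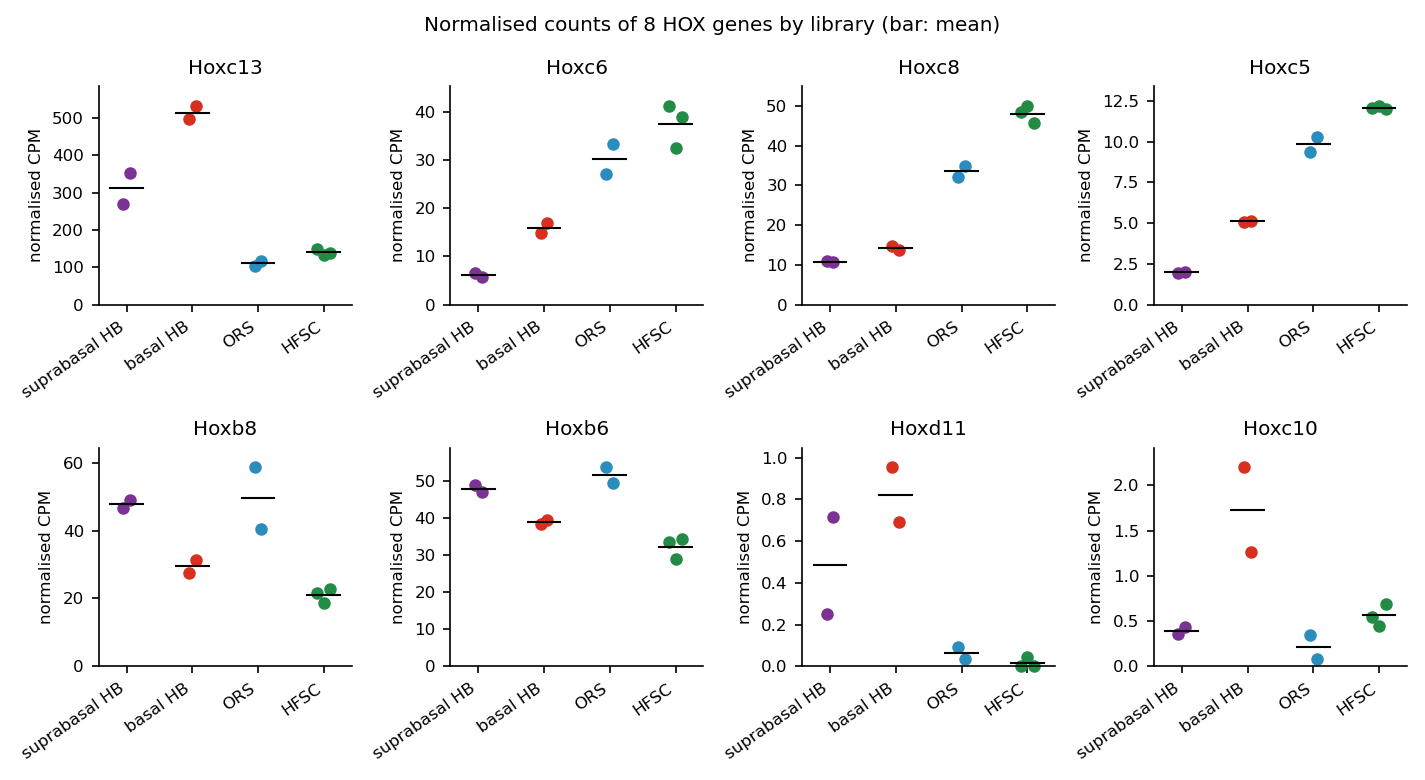
Normalised CPM of 8 HOX genes by library on linear axes from 0; points are libraries and bars the means of each population. By their means Hoxc5, Hoxc6 and Hoxc8 are lowest in suprabasal HB and highest in HFSC, Hoxc13 is highest in basal HB, and Hoxb6 and Hoxb8 are higher in suprabasal HB and ORS than in basal HB.

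The mural and muscle list, at 111 and 83.5 CPM in suprabasal HB against 1540 and 1780 CPM in basal HB, was lower for 9 of 9 genes, and Myh11 was at 8.96 and 5.34 CPM in suprabasal HB against 385 and 396 CPM in basal HB. Dermal fibroblast and papilla markers were lower for 9 of 21 and higher for 2, with sums of 4920 and 2420 CPM in suprabasal HB and 3510 and 3150 CPM in basal HB. Melanocyte markers were higher for 11 of 11, with sums of 16600 and 17000 CPM in suprabasal HB and 1480 and 997 CPM in basal HB. Inner root sheath and shaft markers were higher for 9 of 11 and lower for 2, and matrix markers higher for 1 of 9 and lower for 1. Tchh was at 628 and 622 CPM in suprabasal HB and 3820 and 4190 CPM in basal HB. Of all genes tested, 13.1% were higher and 14.8% lower in suprabasal HB than in basal HB. The posterior HOX genes other than Hoxc13 summed to 7.36 and 7.58 TPM in suprabasal HB, against 18.1 and 15.5 TPM in basal HB. Whether these cells bear on the changes of Hoxa10, Hoxc9 and Hoxc10, or melanocytes on those of the Hoxb genes, was not tested.

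Set directly against ORS, suprabasal HB had 4 of 32 HOX genes higher and 8 lower, where 14.3% of all genes tested were higher and 15.1% lower, 29.4% in either direction. The libraries did not overlap for 21 of the 32, where they did not for 65.1% of all genes tested. On the authors' TPM, which shift the median of all genes by -0.2 here, 31.3% of all calls were higher in place of 48.6%. The lower genes were 4 of 8 Hoxc and 4 of 9 Hoxa genes, the higher ones 3 of 6 Hoxd genes and Hoxc13. Of the 9 Hoxb genes 0 were called in either direction by edgeR or DESeq2, with 0 at an unadjusted p under 0.05 in edgeR and log2 fold changes between -0.31 and 0.25. This comparison shares its libraries with those above. Melanocyte markers were higher in suprabasal HB than in ORS for 11 of 11 genes (sums of 16600 and 17000 CPM in suprabasal HB and 380 and 92.9 CPM in ORS), dermal markers for 8 of 21 (4920 and 2420 CPM in suprabasal HB and 1970 and 1180 CPM in ORS) and nerve and Schwann cell markers for 5 of 7. Mural and muscle markers were lower for 4 of 9 (111 and 83.5 CPM in suprabasal HB and 774 and 705 CPM in ORS). The part of these cells was not tested.

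Hoxc5 had the largest fall, 4.96-fold, at 1.93 and 2.03 CPM in suprabasal HB against 9.38 and 10.3 CPM in ORS (log2 -2.31, SE 0.15, adjusted p = 1.9e-05). Hoxc6 was at 6.67 and 5.75 CPM in suprabasal HB against 27.1 and 33.4 CPM in ORS (log2 -2.28, SE 0.17, adjusted p = 2.8e-05), and Hoxc8 was at 10.9 and 10.7 CPM against 32.1 and 34.9 CPM (log2 -1.63, SE 0.1, adjusted p = 1.1e-05). For Hoxc4 the log2 fold change was -1.51 (SE 0.29, adjusted p = 0.0044). Hoxc13, at the far end of the same cluster, was 2.8-fold higher in suprabasal HB (log2 1.48, SE 0.14, adjusted p = 0.00011). Summed over the 8 Hoxc genes other than Hoxc13, the level was 20.7 ± 3.32 TPM in suprabasal HB, 51.9 ± 4.09 TPM in basal HB, 87.9 ± 9.88 TPM in ORS (SD, n = 2 each) and 91.1 ± 10.1 TPM in HFSC (SD, n = 3). These sums carry the authors' scaling, which shifted the median of all genes by 0.3 in ORS against HFSC. In edgeR the 8 tested Hoxc genes, Hoxc13 among them, all had log2 fold changes below 0 in ORS against HFSC.

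Hoxd11 was 7.83-fold higher in suprabasal HB than in ORS (log2 2.97, SE 0.76, adjusted p = 0.018), Hoxd9 was at 1.06 and 1.28 CPM in suprabasal HB against 0.499 and 0.324 CPM in ORS (log2 1.5, SE 0.35, adjusted p = 0.012), and Hoxd4 was the remaining rise (log2 0.87, adjusted p = 0.046). The edgeR call of Hoxd4 ended with upper-quartile scaling (adjusted p = 0.056) and without the HFSC libraries (0.067), and limma on the authors' TPM did not call it (0.12). Its log2 fold change ran from 0.47 to 1.41 across the fits without 1 library, and 50.3% of its words are shared. Without the second ORS library or the second suprabasal HB library only Hoxc13 stayed among the 4 rises called, since the calls of Hoxd11 (adjusted p = 0.12 and 0.14), Hoxd9 (0.091 and 0.062) and Hoxd4 ended. The log2 fold change of Hoxd11 was 2.03 without the second suprabasal HB library and 2.39 without the second ORS library, and 3.73 without the first ORS library. The falls of Hoxc4, Hoxc5, Hoxc6, Hoxc8, Hoxa5 and Hoxa7 held without any 1 library, those of Hoxa3 and Hoxa6 did not.

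ORS against HFSC, the sheath against the stem cells of the bulge, showed rises mostly among the Hoxb genes. As given above, the HFSC libraries also differed from the ORS libraries in depth, Rps12 and Ddx3y. Differences between the populations and other differences between these sets of libraries therefore cannot be told apart here. In ORS 8 of 32 HOX genes were higher and 3 lower, where 18.1% of all genes tested were higher and 23.8% lower, 41.9% in either direction. The libraries did not overlap for 17 of the 32, where they did not for 61.9% of all genes tested. The higher genes were 6 of 9 Hoxb genes, Hoxa7 and Hoxd8, and the lower ones Hoxa9, Hoxc8 and Hoxc9. All 9 tested Hoxb genes had log2 fold changes above 0 in the main fit and under each other scaling tried, with a median of 0.63, and 7 of 9 did without the first ORS library. For Hoxc, 8 of 8 values were below 0 in edgeR under 3 scalings, and 5 of 8 on the authors' TPM, which shift the median of all genes by 0.3 in this comparison and move the share of calls that are higher to 68.5%, from 43.2%.

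Hoxb8 rose most, at 58.7 and 40.6 CPM in ORS against 21.7, 18.8 and 22.9 CPM in HFSC (log2 1.23, SE 0.15, adjusted p = 0.00041). Hoxb6 was at 53.8 and 49.5 CPM in ORS and at 33.5, 29.1 and 34.5 CPM in HFSC (log2 0.67, SE 0.09, adjusted p = 0.00053). Hoxb2 was at 44.7 and 38 CPM in ORS and at 26.4, 28.5 and 26 CPM in HFSC (log2 0.62, SE 0.1, adjusted p = 0.0012). In these 3 genes each ORS library was above each HFSC library. Hoxb7 was at 24.7 and 18.5 CPM in ORS and at 12.4, 13.4 and 14.4 CPM in HFSC (log2 0.69, SE 0.15, adjusted p = 0.0065), and Hoxb4 and Hoxb5 rose by 0.63 and 0.56 on the log2 scale.

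Hoxc8 was lower in ORS, at 32.1 and 34.9 CPM against 48.4, 50 and 45.8 CPM in HFSC (log2 -0.52, SE 0.08, adjusted p = 0.0015). Hoxc9 was at 0.808 and 0.781 CPM in ORS and 2.08, 1.5 and 2.12 CPM in HFSC (log2 -1.25, SE 0.3, adjusted p = 0.01). Hoxa9, an AbdB-type gene known from blood stem cells, was at 3.62 and 1.93 CPM in ORS and 6.2, 6.6 and 5.13 CPM in HFSC (log2 -1.11, SE 0.28, adjusted p = 0.013). Hoxc6 was at 27.1 and 33.4 CPM in ORS and at 41.2, 32.5 and 38.9 CPM in HFSC, with overlapping libraries and no call. Hoxc13 was at 105 and 118 CPM in ORS and at 150, 134 and 139 CPM in HFSC, and its log2 fold change of -0.34 (SE 0.13) did not pass (adjusted p = 0.064).

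On the authors' TPM limma called 0 of the 32 genes lower (2 at an unadjusted p under 0.05). Without the first ORS library 3 genes were higher and 6 lower, and the calls of Hoxb7 (adjusted p = 0.053), Hoxa7 (0.053), Hoxb4 (0.059), Hoxb5 (0.085) and Hoxd8 (0.29) ended. The call of Hoxd8 ended in 5 of the 9 fits without 1 library and with the replicate number as a block (0.13); that of Hoxc9 ended without the second ORS library (0.054), and that of Hoxa9 without the second ORS (0.064), the first HFSC (0.051) or the second HFSC library (0.05).

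Markers of other cells were set beside all genes tested, of which 18.1% were higher and 23.8% lower in ORS than in HFSC. Dermal markers were lower in ORS than in HFSC for 7 of 21 genes and higher for 1 (sums of 1970 and 1180 CPM in ORS and 2450 to 3870 CPM in HFSC), endothelial and blood markers lower for 5 of 11 (69.9 and 71 CPM in ORS and 131 to 178 CPM in HFSC), and mural and muscle markers lower for 4 of 9 (774 and 705 CPM in ORS and 2070 to 2770 CPM in HFSC). Their part in the HOX values was not tested.

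Genes that act with or upon HOX genes were taken from lists. Their counts stand beside the shares of all genes tested given above for each comparison, 13.1% higher and 14.8% lower in suprabasal HB against basal HB, 15.8% and 14.7% in basal HB against ORS, and 18.1% and 23.8% in ORS against HFSC. Of 9 HOX cofactors, 2 were lower in suprabasal HB than in basal HB, 5 higher and 1 lower in basal HB than in ORS, and 1 higher and 4 lower in ORS than in HFSC. Meis1 was at 9.56 and 8.95 CPM in suprabasal HB, 18.4 and 18.5 CPM in basal HB, 21.7 and 24.7 CPM in ORS and 34.5 to 39.8 CPM in HFSC. It was lower in suprabasal HB than in basal HB (log2 -0.99, SE 0.12, adjusted p = 0.00051) and in ORS than in HFSC (log2 -0.66, SE 0.11, adjusted p = 0.0014). Meis2, Meis3 and Pknox2 were higher in basal HB than in ORS, by 1.67, 2.91 and 1.47 on the log2 scale, and Pknox1 lower, at -0.67.

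The list of Foxn1, Foxq1 and hair keratins holds genes reported to act downstream of Hoxc13 in mouse hair or to build the shaft, and 14 of its 16 genes were measured. Between suprabasal HB and basal HB 12 were higher and 1 lower, between basal HB and ORS 9 higher and 1 lower, and between ORS and HFSC 3 higher and 2 lower. Foxq1, a forkhead factor of the hair medulla, was at 98 and 188 CPM in suprabasal HB, 649 and 719 CPM in basal HB, 42.7 and 25.6 CPM in ORS and 10.8 to 14.3 CPM in HFSC. It was the gene of the list that fell in suprabasal HB against basal HB (log2 -2.26, SE 0.33, adjusted p = 0.0014), and its rise in basal HB over ORS was 20.1-fold (log2 4.33, SE 0.36, adjusted p = 0.00012). Krt35, a keratin of the hair cortex and cuticle, was at 1430 and 1580 CPM in suprabasal HB, 115 and 92.6 CPM in basal HB, 50.2 and 12.4 CPM in ORS and 29.6 to 50.1 CPM in HFSC. Foxq1, like Hoxc13, was thus highest in basal HB, and Krt35 in suprabasal HB, where Hoxc13 was lower than in basal HB. Foxn1, a forkhead factor lost in nude mice and named here after its values were seen, was lowest by its mean in basal HB, at 27.4 and 23.5 CPM in suprabasal HB, 7.68 and 6.26 CPM in basal HB, 11.2 and 10 CPM in ORS and 7.91 to 11.6 CPM in HFSC. Krt82, Krt83, Krt36 and Krt86 were higher in suprabasal HB than in basal HB by 2.59 to 3.06 on the log2 scale.

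Of the 23 upstream and retinoid genes, which include the enzymes and receptors through which retinoic acid turns on HOX genes in the embryo, 20 were tested, and 11 were higher and 2 lower in basal HB than in ORS. Aldh1a3, which makes retinoic acid, was at 408 and 400 CPM in suprabasal HB, 501 and 514 CPM in basal HB, 113 and 28.1 CPM in ORS and 17.6 to 33.7 CPM in HFSC. Aldh1a2, another such enzyme, ran the other way, at 0.113 and 0.157 CPM in suprabasal HB, 0.655 and 0.907 CPM in basal HB, 2.38 and 4.46 CPM in ORS and 9.17 to 13.4 CPM in HFSC. Cyp26b1, which breaks retinoic acid down and is also a gene of the dermal papilla, was at 26.5 and 8.98 CPM in basal HB and 3.65 and 0.402 CPM in ORS (log2 3.15, SE 0.99, adjusted p = 0.041). Suprabasal HB against basal HB had 2 of the 20 higher and 5 lower, and ORS against HFSC 4 higher and 7 lower.

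Among 24 chromatin regulators of HOX genes, from the Polycomb group, which keeps them silent, and the Trithorax group, which keeps them active, 12 were higher and 6 lower in ORS than in HFSC, and 1 higher and 6 lower in basal HB than in ORS. In suprabasal HB against basal HB 2 were higher and 3 lower, shares near or below those of all genes tested. Ezh2, the Polycomb methyltransferase, was at 79.3 and 77 CPM in basal HB, against 119 and 115 CPM in ORS (log2 -0.58, SE 0.1, adjusted p = 0.0027). Jarid2, a partner of that enzyme, was the gene that rose, at 159 and 155 CPM in basal HB against 57.4 and 50 CPM in ORS (log2 1.55, SE 0.1, adjusted p = 7.4e-05). Kmt2a, the Trithorax methyltransferase, was at 102 and 93.7 CPM in suprabasal HB, against 166 and 226 CPM in ORS (log2 -1.01, SE 0.18, adjusted p = 0.0036).

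Of the 17 noncoding genes of the clusters that the tables hold, 8 had enough reads to be tested. Halr1, a noncoding gene of the Hoxa cluster, was at 0.148 and 0.0335 CPM in ORS, against 1.23, 1.77 and 1.13 CPM in HFSC, 15.5-fold lower (log2 -3.95, SE 0.58, adjusted p = 0.00093). Haglr, from the Hoxd cluster, was at 0.364 and 0.461 CPM in basal HB, against 0.103 and 0.112 CPM in ORS (log2 1.91, SE 0.44, adjusted p = 0.01). Haglr overlaps Hoxd3 on the opposite strand, and Hoxd3 had a log2 fold change of 1.86 in this comparison, without a call. The change of Haglr is therefore uncertain and is not set beside the Hoxd genes. Hoxaas3 and Hoxb3os lie antisense to Hoxa7, Hoxa3, Hoxb2 and Hoxb3, and reads of such pairs cannot be told apart without the strand, so their changes are not set beside those genes.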

How the data were processed

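Polyadenylated RNA was sequenced from both ends, per the labels' protocols, and processed with Bowtie2 2.2.9 and RSEM 1.2.30 against mm10, per the submitters' processing notes; parameters and strand are not given in the sources used here. The authors' deposited tables give an RSEM expected count per gene, not scaled for depth, and TPM, which the authors scaled for length and library. FPKM columns and a TPM table of the whole series were not used. Libraries were grouped by title.

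Expected counts were rounded and fitted in R 4.3.3 with edgeR 4.0.16: filterByExpr (20491 genes), TMM scaling, and 1 quasi-likelihood fit of 4 population means over 9 libraries with 5 residual degrees of freedom. P-values are 2-sided, with Benjamini-Hochberg adjustment across all tested genes and a threshold of 0.05, for 4 comparisons. The SE was taken as |log2 fold change|/√F. Levels are TMM-normalised CPM or deposited TPM. Positions came from GENCODE M21. DESeq2 1.42.0, limma 3.58.1 on log2(TPM + 1), other scalings and filters, a replicate block and leaving out each library were alternatives, and leaving out all HFSC libraries was chosen after seeing the data. The procedure was tested on simulated data.

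The members and gene lists were chosen with earlier results of these data known, as were the paralog classes. Genes given in every library were the 3 with the highest mean TPM in any population and the 5 called genes with the largest change in any comparison; from other lists at most 6 genes, those called with the largest change. The other falls and rises are given by range.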

Additional observations from a re-analysis of the deposited data

How the results depend on the processing

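Over 10 alternatives, the removal of each of 9 libraries and that of all 3 HFSC libraries, 155 recomputed counts of HOX genes stayed within 1.5 times their main value and 21 did not, and 0 of the 58 calls changed sign. Of the 58 calls, 29 held without any 1 library and 25 also under the alternatives. On log2(TPM + 1) limma gave 0 lower genes in ORS against HFSC and 0 higher in suprabasal HB against basal HB, also with a pseudocount of 0.1 and without the filter, and without the filter 8 lower genes for basal HB over ORS and 1 higher for suprabasal HB over ORS. Fitting the compared populations alone gave 2 higher in suprabasal HB against ORS. The cause was not tested. Without 1 library each, the counts of higher genes ranged from 2 to 7 in suprabasal HB against basal HB, 5 to 8 for basal HB over ORS, 1 to 6 for suprabasal HB over ORS and 3 to 9 in ORS against HFSC, and those of lower genes from 4 to 9, 8 to 14, 6 to 9 and 2 to 6 in the same order; 23 to 29 differed among populations.

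With the replicate number as a block, 5 genes were higher and 6 lower in suprabasal HB against basal HB, 7 and 13 for basal HB over ORS, 4 and 8 for suprabasal HB over ORS and 7 and 3 in ORS against HFSC. The correlation of same-numbered libraries' deviations ran from -0.22 to 0.28. Between populations with 2 libraries, replicate 2 gave the same values as replicate 1 (0.16, 0.09 and 0.28), since their deviations mirror each other. The correlations therefore cannot decide whether libraries were paired, and the block was set by the replicate number. Low counts limit the posterior genes other than Hoxc13, since with 2 libraries a population 1 library often decides a call.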
